A study of Mus musculus with 8 samples.

Results

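NF-kB (nuclear factor kappa B) transcription factors and their feedback inhibitors were examined as 10 named genes among the 46983 genes counted in B cells of mouse bone marrow, and the members were taken by symbol: Nfkb1, Nfkb2, Rel, Rela and Relb for the subunits, and Nfkbia, Nfkbie, Tnfaip3, Birc3 and Bcl3 for the inhibitors and regulators. All 10 were among the 15175 genes abundant enough to be tested. The B cells came from wild-type (WT) mice, were isolated by magnetic sorting, and were kept under hypoxia in both groups. Estrogen was added in the Estrogen group (n = 4 libraries), and vehicle alone in the Vehicle group (n = 4). The labels name no age, dose or culture time. Whether the 4 libraries of a group stem from different animals or cultures is not stated either. Every p here therefore reflects only how these libraries vary, which may in part be technical.

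NF-kB subunits form dimers that are held in the cytoplasm by IkB proteins until the IkB kinase (IKK) marks the IkB for degradation. The freed dimers then enter the nucleus and switch on many genes, among them those of their own inhibitors, which closes a negative feedback loop. In B cells the pathway runs downstream of the B cell receptor, CD40, the BAFF receptor and Toll-like receptors, and supports the survival of maturing cells. The comparison of Estrogen with Vehicle addressed which genes of hypoxic B cells respond to estrogen.

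Libraries held 30181834 to 34236361 reads in Estrogen and 32484430 to 39088597 reads in Vehicle. Levels are given in CPM, counts per 1000000 reads of a library scaled with the trimmed mean of M-values (TMM), and a floor of 3 reads equals 0.078 to 0.102 CPM, far below every member. Vehicle 3 stood apart in sex-linked genes, with the X-inactivation RNA Xist at 2.39 CPM there while the remaining 7 libraries held 469.9 to 1440 CPM. The 5 sex-linked genes together were at 279 CPM in Vehicle 3, so nearly all of that sum came from genes other than Xist. Of these 5 genes, 1 was abundant enough over the libraries to be tested. Whether Vehicle 3 came from a mouse of another sex than the rest was not tested. Vehicle 3 is therefore not a technical repeat of the other Vehicle libraries, and the comparison was not adjusted for this. The libraries expressed the B lineage markers Cd22 (416 ± 51.5 CPM in Estrogen and 507 ± 62.0 CPM in Vehicle; SD, n = 4 each) and Cd79a. The 10 T and NK cell markers summed to 129 to 244.5 CPM in Estrogen and 112 to 187 CPM in Vehicle. Of these, Cd3e, Cd3d and Cd3g of the T cell receptor complex stayed under 1 CPM in every library, but Cd8a was at 38.2 to 133 CPM in Estrogen and 28.9 to 91.3 CPM in Vehicle, and Cd4 at 56.1 to 100.4 CPM in Estrogen and 40.3 to 97.2 CPM in Vehicle. RNA of other marrow cells was present as well, including Siglech of plasmacytoid dendritic cells at 1032 ± 319 CPM in Estrogen and 654 ± 189 CPM in Vehicle. In bulk libraries of this kind, fewer cells of a type and less RNA per cell cannot be told apart.

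The promoters of several members carry the binding motif of NF-kB itself, and are shown because binding of NF-kB to such sites in the promoters of its inhibitors is the known basis of the feedback. Promoter windows from 250 bases before to 50 bases after the start site (RefSeq, GRCm38.p6) were on hand for 8 of the 10 genes, the others being Nfkb1 and Relb. The 10-base NF-kB consensus, searched on both strands, was found in 6 of these 8 genes, against 9.55% of the 27025 genes with such a window. A looser pattern, G-G-G, any 5 bases, then C-C, was found in all 8, against 53.5% of genes. The consensus is close to a palindrome, so matches on both strands overlap and were merged into 1 site. A match is a description of the letters and not a measured binding site. In the lines below capitals mark the merged consensus matches, and each window is written 5′ to 3′ in the direction of transcription.
Nfkbia (minus strand, chr12:55492598-55492897): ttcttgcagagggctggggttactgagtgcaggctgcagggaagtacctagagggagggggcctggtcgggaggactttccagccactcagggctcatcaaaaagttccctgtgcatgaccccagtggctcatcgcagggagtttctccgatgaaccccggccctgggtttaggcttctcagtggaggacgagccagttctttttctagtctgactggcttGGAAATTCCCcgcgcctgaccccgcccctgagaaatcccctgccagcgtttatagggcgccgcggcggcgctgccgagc
Tnfaip3 (minus strand, first of 2 start sites, chr10:19015361-19015660): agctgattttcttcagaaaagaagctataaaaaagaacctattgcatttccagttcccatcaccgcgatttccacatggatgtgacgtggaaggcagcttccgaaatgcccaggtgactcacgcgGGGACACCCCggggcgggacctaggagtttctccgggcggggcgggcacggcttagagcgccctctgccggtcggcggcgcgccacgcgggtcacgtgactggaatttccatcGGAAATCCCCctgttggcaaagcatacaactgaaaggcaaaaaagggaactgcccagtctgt
Nfkb2 (plus strand, first of 3 start sites, chr19:46304487-46304786): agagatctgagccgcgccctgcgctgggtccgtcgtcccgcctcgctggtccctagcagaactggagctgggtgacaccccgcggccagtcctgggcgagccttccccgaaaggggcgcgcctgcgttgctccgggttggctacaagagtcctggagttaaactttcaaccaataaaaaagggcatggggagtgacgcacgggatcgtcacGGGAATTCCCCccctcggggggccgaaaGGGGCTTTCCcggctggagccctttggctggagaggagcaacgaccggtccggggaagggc
Rel (minus strand, chr11:23770920-23771219): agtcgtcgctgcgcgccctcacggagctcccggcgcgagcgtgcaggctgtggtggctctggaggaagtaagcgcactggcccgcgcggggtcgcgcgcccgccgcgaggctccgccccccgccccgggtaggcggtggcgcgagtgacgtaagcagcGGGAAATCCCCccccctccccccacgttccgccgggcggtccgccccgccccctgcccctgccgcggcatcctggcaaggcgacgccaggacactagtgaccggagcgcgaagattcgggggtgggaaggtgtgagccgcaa
The site of Nfkbia began 29 bases upstream of the start, those of Tnfaip3 125 and 12 bases upstream, those of Nfkb2 39 and 11 bases upstream, and that of Rel 92 bases upstream. The other start sites of Nfkb2 held GGAATGTCCC from 236 bases upstream of the second, and GGGACTTTCC from the transcribed base 11 of the second, which is the same site as the one 225 bases upstream of the third. The window at the second start site of Tnfaip3 held no match. Nfkbie held GGGGGATTCC from 106 bases upstream of its start on chromosome 17, and Bcl3 held GGGAAGTCCC from the third transcribed base on chromosome 7. The windows of Rela and Birc3 held no consensus match. The 11 windows of the 8 genes ranged in GC content from 43% in Birc3 to 75% in Rel.

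Compared per length, Nfkbia was the most abundant of the 10 messages. As RPKM, which is CPM divided by the annotated exon length in kilobases, it was at 154 ± 34.3 in Estrogen and 178 ± 28.9 in Vehicle, and its range over the 8 libraries, 118 to 217 RPKM, did not meet that of any other member. Nfkbie followed at 56.3 ± 6.48 RPKM in Estrogen and 62.4 ± 4.32 RPKM in Vehicle, then Birc3, Rela, Nfkb1, Nfkb2, Rel, Relb, Bcl3 and last Tnfaip3 at 15.9 ± 1.21 RPKM in Estrogen and 18.1 ± 1.37 RPKM in Vehicle. Between neighbours in this order the ranges overlapped, except between Nfkbia and Nfkbie and between Rela and Nfkb1. The place of Nfkb1 depended on the length used. Over all its annotated exons (12061 bases) it was at 31.3 ± 3.90 RPKM in Estrogen and 34.6 ± 1.53 RPKM in Vehicle, but over its longest transcript (4149 bases) at 91.1 ± 11.3 RPKM in Estrogen and 100.6 ± 4.43 RPKM in Vehicle, next after Nfkbia. Birc3 was at 42.1 ± 4.88 RPKM in Estrogen and 45.5 ± 7.26 RPKM in Vehicle over all exons, and at 72.4 ± 8.4 RPKM in Estrogen and 78.3 ± 12.5 RPKM in Vehicle over its longest transcript.

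**Figure D1:**
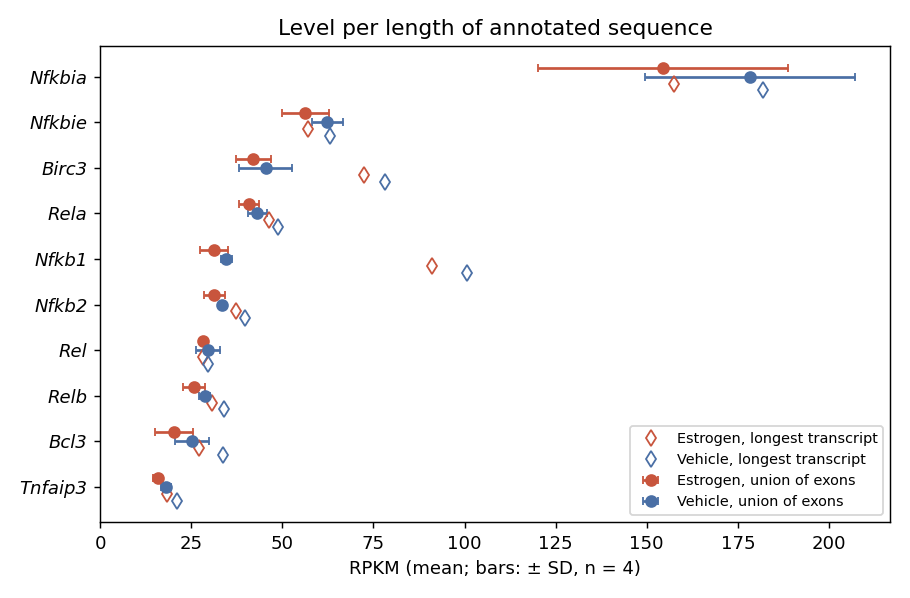
Mean RPKM of each gene in Estrogen and Vehicle, over the union of annotated exons (filled, bars ± SD, n = 4) and over the longest transcript (open). Nfkbia lies apart from the others, at 154 RPKM in Estrogen and 178 RPKM in Vehicle, while Nfkb1 moves between 31.3 and 91.1 RPKM in Estrogen with the length used.

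Each of the 5 subunits held a similar share of their summed RPKM in both groups. Over annotated exons Rela held 26.0 ± 0.478% in Estrogen and 25.4 ± 1.17% in Vehicle. Nfkb1 held 19.8 ± 1.06% in Estrogen and 20.4 ± 0.677% in Vehicle, and Nfkb2 19.9 ± 0.509% in Estrogen and 19.7 ± 0.470% in Vehicle. Relb held 16.4 ± 0.731% in Estrogen and 16.9 ± 0.699% in Vehicle. Rel held 17.9 ± 1.56% in Estrogen and 17.5 ± 2.02% in Vehicle. The order of Rel and Relb varied between libraries, and over the longest transcripts Rel held less, 12.1 ± 1.20% in Estrogen and 11.7 ± 1.46% in Vehicle, against 13.1 ± 0.410% for Relb in Estrogen and 13.5 ± 0.436% for Relb in Vehicle. Over the longest transcripts Nfkb1 took the largest share, 38.9 ± 1.54% in Estrogen and 39.8 ± 0.929% in Vehicle. These shares are descriptions, and no test was made on them.

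Among the subunits, Nfkb1 (ENSMUSG00000028163, chromosome 3, 135584655 to 135691547, minus strand, GRCm38), which encodes the precursor of the p50 subunit, was at 426, 357, 406 and 322 CPM in Estrogen 1 to 4, against 419, 403, 443 and 405 CPM in Vehicle 1 to 4. Estrogen 2 and Estrogen 4 lay below all Vehicle libraries, while Estrogen 1 and Estrogen 3 lay inside their range. Fitted log2 differences are given as Estrogen minus Vehicle ± SE, and that of Nfkb1 was -0.14 ± 0.11. Its 95% interval ran from -0.39 to 0.10 (edgeR quasi-likelihood test, adjusted p = 0.860), and without Estrogen 4 the difference was -0.07. Relb (chromosome 7, 19606217 to 19629438, minus strand), whose product pairs with p52 in the non-canonical branch, followed the same libraries. It was at 113, 92.7, 108 and 87.8 CPM in Estrogen, against 114, 105, 119 and 109 CPM in Vehicle, a log2 difference of -0.15 ± 0.10, or -0.09 without Estrogen 4. Nfkb1 and Relb were the most alike pair of members across the 8 libraries (Pearson r = 0.986 for log2 CPM, Spearman rho = 0.952), a description over libraries that share treatment and sequencing.

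Nfkb2 (chromosome 19, 46304320 to 46312385, plus strand) encodes p100, at once the precursor of p52 and an inhibitor of RELB. It was at 156, 131, 153 and 134 CPM in Estrogen, against 150.4, 151, 153 and 159 CPM in Vehicle. The Vehicle libraries were close together, and again Estrogen 2 and Estrogen 4 lay below them. The log2 difference was -0.10 ± 0.09, or -0.05 without Estrogen 2 and -0.06 without Estrogen 4. Of the 50-base windows of Nfkb2 transcripts 14.9% also occur, on either strand, in transcripts of other genes, mostly of AC114539.1 on the opposite strand, and its exons overlap those of Psd as well, so its reads cannot be fully told apart from theirs. Rela (chromosome 19, 5637483 to 5648130, plus strand), the gene of the transactivating p65 subunit, had a fitted difference close to that of Rel. It was at 133, 118, 133 and 119 CPM in Estrogen, against 132, 126, 144 and 128 CPM in Vehicle, with a log2 difference of -0.07 ± 0.08 and a 95% interval from -0.26 to 0.11. The difference of Rela was -0.02 without Vehicle 3 and -0.04 without either Estrogen 2 or Estrogen 4.

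Rel (chromosome 11, 23736847 to 23770970, minus strand), which encodes c-Rel, a subunit typical of lymphocytes, had another pattern across libraries than the rest. It was at 204.5, 214, 212 and 209 CPM in Estrogen, against 208, 233, 196 and 249 CPM in Vehicle. All 4 Estrogen libraries lay inside the Vehicle range, with a coefficient of variation of 2.0% in Estrogen and 10.9% in Vehicle, and the log2 difference was -0.08 ± 0.09. It was -0.01 without Vehicle 4, -0.04 without Vehicle 2 and -0.12 without Vehicle 3. Its 9 pairs with other members had Pearson r from -0.384 to 0.400 (median -0.134), while the 36 pairs without Rel ran from 0.224 to 0.986 (median 0.785). All these r are over the same 8 libraries and are given as a description.

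**Figure D2:**
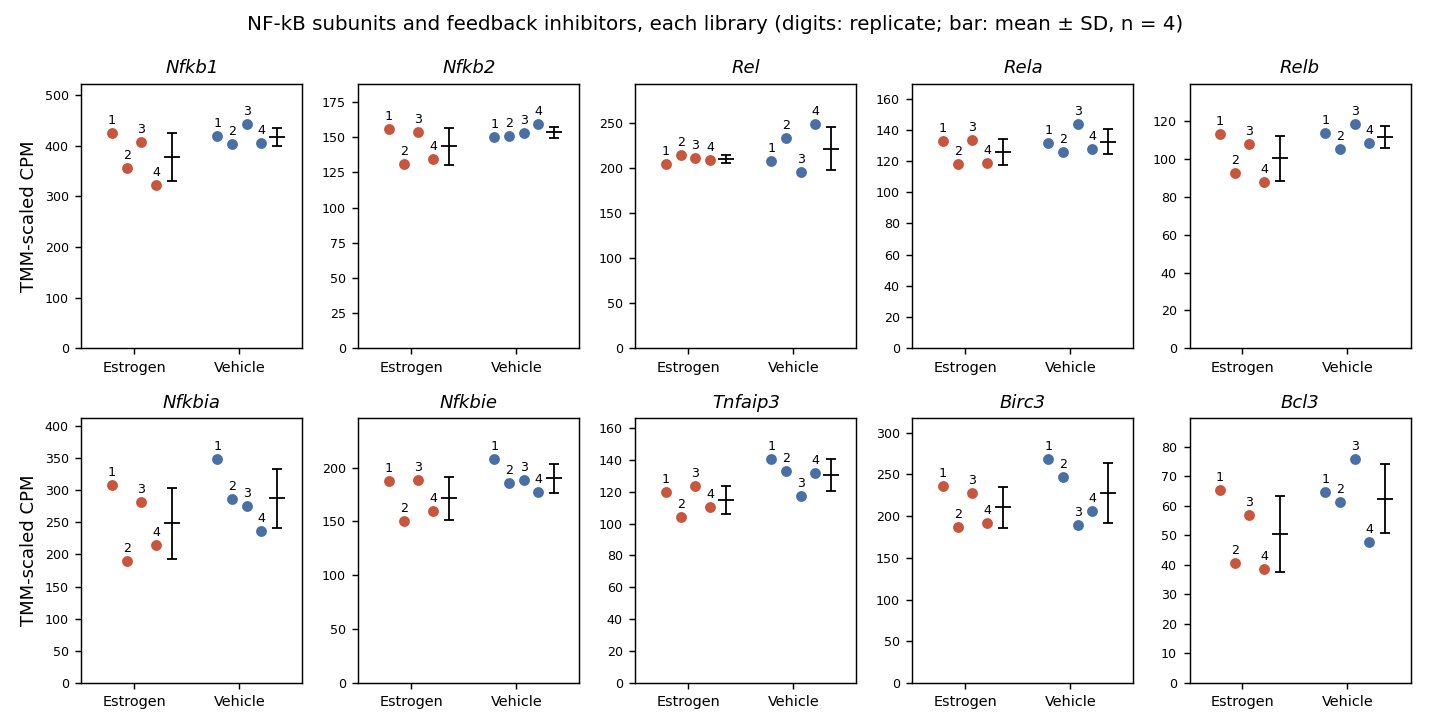
TMM-scaled CPM of each gene in every library, with Estrogen left and Vehicle right. Digits give the replicate number and bars the mean ± SD (n = 4), and Estrogen 2 and Estrogen 4 sit lowest in 8 of the 10 genes, Rel and Birc3 being the exceptions.

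Among the inhibitors, Nfkbia (ENSMUSG00000021025, chromosome 12, 55489410 to 55492647, minus strand) encodes IkB alpha, the inhibitor that NF-kB restores most quickly, and carries the consensus site shown above near its start. It was at 308, 190.0, 281.5 and 215 CPM in Estrogen, against 349, 287, 276 and 237 CPM in Vehicle. The groups overlapped, with Estrogen 2 and Estrogen 4 lowest and Vehicle 1 highest, and the log2 difference was -0.21 ± 0.17, with a 95% interval from -0.60 to 0.18. It was -0.08 without Vehicle 1, -0.10 without Estrogen 2 and -0.32 without Estrogen 1. Nfkbie (chromosome 17, 45555703 to 45563169, plus strand), the gene of IkB epsilon, was at 188, 150.1, 189 and 159 CPM in Estrogen, against 208, 186, 189 and 177 CPM in Vehicle. This again put the same Estrogen libraries below all Vehicle libraries, with a log2 difference of -0.15 ± 0.10, or -0.08 without Vehicle 1 and -0.09 without Estrogen 2. Across the 8 libraries Nfkbia and Nfkbie moved together (r = 0.972, rho = 0.810).

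Tnfaip3 (ENSMUSG00000019850, chromosome 10, 19000910 to 19015657, minus strand) encodes A20, an ubiquitin-editing enzyme that shuts off signalling upstream of IKK. It had the smallest p of the 10 members and ranked at place 736 of the 15175 genes. Its level was 120, 104, 124 and 111 CPM in Estrogen, against 141, 133, 117 and 132 CPM in Vehicle, where Vehicle 3 lay below Estrogen 1 and Estrogen 3. The log2 difference was -0.19 ± 0.09. Its 95% interval reached from -0.39 up to 0.01 (adjusted p = 0.860 by edgeR). Birc3 (chromosome 9, 7848699 to 7873186, minus strand), which encodes the ubiquitin ligase cIAP2 that restrains the kinase NIK, was at 236, 187, 227.5 and 192 CPM in Estrogen, against 269, 247, 189.5 and 206 CPM in Vehicle. Here Vehicle 3 was almost as low as Estrogen 2, and the log2 difference of -0.11 ± 0.13 was -0.01 without Vehicle 1, -0.06 without Estrogen 2 or Vehicle 2, -0.07 without Estrogen 4 and -0.18 without Vehicle 3. Birc3 shares 7.56% of its 50-base windows with other genes, mostly Gm7019.

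Bcl3 (ENSMUSG00000053175, chromosome 7, 19808462 to 19822770, minus strand) encodes an atypical nuclear IkB protein that binds dimers of p50 or p52 and can help them to activate genes. Its fitted difference was the farthest from 0 of the 10 members with all libraries, but not without Vehicle 3, where that of Tnfaip3 was -0.23. Bcl3 was at 65.4, 40.7, 56.9 and 38.7 CPM in Estrogen, against 64.6, 61.4, 75.9 and 47.7 CPM in Vehicle. Estrogen 1 was above Vehicle 1 and Vehicle 2, and Vehicle 4 was below Estrogen 1 and Estrogen 3. Its log2 difference was -0.31 ± 0.20, with a 95% interval from -0.75 to 0.13 (edgeR adjusted p = 0.860), and was -0.19 without either Vehicle 3 or Estrogen 4. Exons of the antisense gene Gm16175 cover 6.51% of the Bcl3 exons, and without a stated strand setting their reads cannot be told apart.

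None of the 10 members passed edgeR's quasi-likelihood test with Benjamini-Hochberg adjustment over all genes, nor did any other gene: 0% of 15175 were called. Without adjustment, p was under 0.05 in 534 genes, 3.52% of those tested (1.26% with Estrogen lower), and in 0 of the 10 members. The DESeq2 Wald test called 1 gene of the whole table, Cd8b1, limma-voom 0 genes, and neither called a member. The adjusted p of the members ran from 0.860 to 0.868. All 10 had a fitted difference below 0, compared with 51.1% of all genes tested, with a median of -0.15 for the members and -0.01 for all genes. The members were chosen with earlier results known and, apart from Rel, mostly vary together, so this count is not 10 separate pieces of evidence. The differences were small, from -0.07 in Rela to -0.31 in Bcl3, or 5.0% to 19.2% lower in Estrogen. Every 95% interval included 0, and every one lay within 1 log2 unit of 0, so that a 2-fold change is outside the interval of each member. In 0 of the 10 members were the groups apart. Over all genes tested they were apart in 1.67%, with Estrogen lower in 0.771% and higher in 0.896%.

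**Figure D3:**
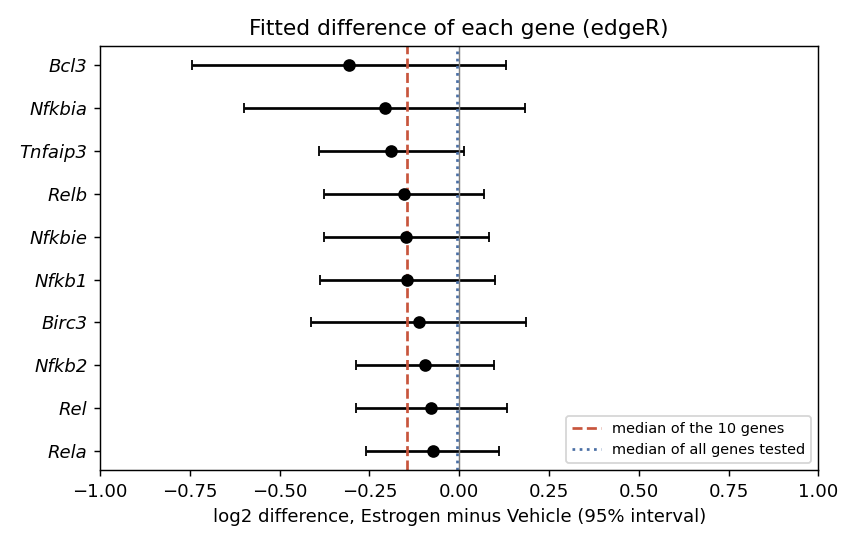
Fitted log2 difference of each gene, Estrogen minus Vehicle, with its 95% interval from edgeR. All 10 points lie left of 0 and all 10 intervals cross it, with medians of -0.15 for the 10 genes (dashed) and -0.01 for all genes tested (dotted).

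The lowest values lay mostly in 2 of the 4 Estrogen libraries. Estrogen 2 was below every Vehicle library in 9 of the 10 members and Estrogen 4 in 8, while Estrogen 1 and Estrogen 3 were below every Vehicle library in 0 members. The share of all genes tested with such values was not counted, so these counts cannot be read as particular to the members. Over all genes tested, Estrogen 2 and Estrogen 4 were also far from Vehicle 1 to 3, with a chi-square of counts per degree of freedom of 92.9 to 179. Pairs within a group ran from 26.0 to 127. Vehicle 4 was likewise far from Vehicle 1, Vehicle 2 and Vehicle 3 (127, 76 and 104). It was closer to Estrogen 2 (51.5) and Estrogen 4 (21.9), so this distance was not particular to the Estrogen group. No Estrogen library was above all Vehicle libraries in any member. The median of the 10 differences was -0.09 without Estrogen 2, -0.08 without Estrogen 4 and -0.09 without Vehicle 1, and -0.13 without Vehicle 3, the library that stood apart in sex-linked genes. The B lineage markers were also lowest in Estrogen 2 and Estrogen 4. Summed over 10 markers, among them Cd79a and Cd22, they were at 11630, 6862, 9978 and 6859 CPM in Estrogen, against 13400, 11380, 11650 and 8270 CPM in Vehicle, and all 10 of them had a fitted difference below 0 (median -0.26). The 8 markers of mature B cells summed to 1696 to 2757 CPM in Estrogen and 1905 to 3036 CPM in Vehicle, with all 8 below 0 (median -0.42). The 8 early B cell markers went the other way in part, at 1601 to 1842 CPM in Estrogen and 1199 to 1943 CPM in Vehicle, with 5 of 8 above 0 (median 0.12). Of the 9 tested T and NK cell markers 7 were below 0 (median -0.85), and 2 of them, Cd8b1 and Thy1, had groups that did not overlap. Thy1 was low, at 0.754 ± 0.137 CPM in Estrogen and 1.46 ± 0.356 CPM in Vehicle. The sum of the 10 T and NK cell markers did not go down with them, at 129 to 244.5 CPM in Estrogen and 112 to 187 CPM in Vehicle. The 6 plasmacytoid dendritic cell markers summed to 2011, 2378, 1871 and 2818 CPM in Estrogen, against 1658, 1756, 1584 and 2128 CPM in Vehicle, with 4 of 6 above 0, and were highest in Estrogen 4 and Estrogen 2. The 10 monocyte and macrophage markers ranged from 1585 to 3004 CPM in Estrogen and from 1505 to 2492 CPM in Vehicle, with 8 of 10 above 0. The 8 neutrophil markers were at 3730, 8998, 7564 and 3134 CPM in Estrogen, against 4196, 4128, 8591 and 3060 CPM in Vehicle, and so differed widely between Estrogen 2 and Estrogen 4. The part of these markers in the members' differences was not tested. Vehicle 4 was low in B lineage markers as well (8270 CPM), and its 10 members summed to 1850 CPM, the lowest sum in Vehicle (1850 to 2055 CPM). The sums were 1585 CPM in Estrogen 2, 1589 CPM in Estrogen 4, 1891 CPM in Estrogen 3 and 1949 CPM in Estrogen 1.

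**Figure D4:**
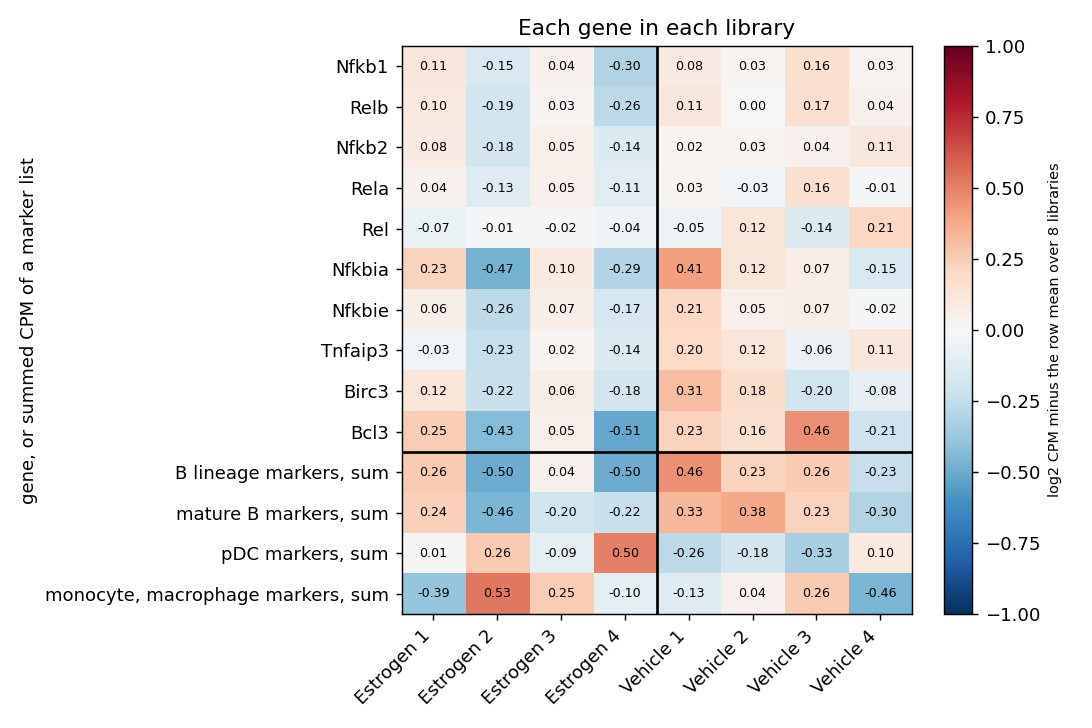
Log2 CPM of each gene in each library relative to the mean of its row, with summed CPM of 4 marker lists below the line (pDC, plasmacytoid dendritic cell). Estrogen 2 and Estrogen 4 are low for Nfkbia (-0.47 and -0.29) and Bcl3 (-0.43 and -0.51) but not for Rel (-0.01 and -0.04), and the B lineage markers are low in the same libraries.

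The remaining IkB genes also had fitted differences below 0. Nfkbid, which encodes a nuclear IkB protein of lymphocytes, was at 154 ± 19.8 CPM in Estrogen and 176 ± 26.0 CPM in Vehicle, a log2 difference of -0.19 ± 0.13. Nfkbib, the gene of IkB beta, was at 41.1 ± 8.12 CPM in Estrogen and 45.5 ± 8.47 CPM in Vehicle. Nfkbiz, the gene of the nuclear IkB zeta, was at 44.9 ± 5.33 CPM in Estrogen and 46.7 ± 2.22 CPM in Vehicle, and 3 of 3 were below 0. The 10 genes of the IKK complex and its upstream kinases differed in direction, with 8 above and 2 below 0 (median 0.03). Ikbkg, which encodes the regulatory subunit NEMO, was at 95.4 ± 11.1 CPM in Estrogen and 89.9 ± 3.86 CPM in Vehicle. Map3k14, the gene of NIK, the kinase of the non-canonical branch, was at 50.1 ± 7.04 CPM in Estrogen and 54.5 ± 7.62 CPM in Vehicle. None of these passed the test over all genes.

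Between the B cell receptor and IKK, the paracaspase gene Malt1 was at 152 ± 15.4 CPM in Estrogen and 166 ± 11.7 CPM in Vehicle and Bcl10 at 94.6 ± 15.3 CPM in Estrogen and 109 ± 21.9 CPM in Vehicle. Of 12 adaptors and ubiquitin ligases 11 were below 0 (median -0.13), among them Traf2 (50.9 ± 7.62 CPM in Estrogen and 58.5 ± 7.0 CPM in Vehicle) and Traf5 (60.9 ± 18.3 CPM in Estrogen and 77.5 ± 18.3 CPM in Vehicle). Rnf31, which encodes the catalytic subunit of the linear ubiquitin ligase, was at 102 ± 13.5 CPM in Estrogen and 115 ± 9.45 CPM in Vehicle. The kinase gene Ripk1 was the exception, at 35.4 ± 3.43 CPM in Estrogen and 31.8 ± 1.58 CPM in Vehicle. Of 9 other negative regulators 7 were below 0 (median -0.08), such as the RNase gene Zc3h12a at 51.6 ± 5.79 CPM in Estrogen and 57.9 ± 4.42 CPM in Vehicle and the deubiquitinase gene Cyld at 139 ± 8.41 CPM in Estrogen and 149 ± 12.0 CPM in Vehicle. No gene of these lists was called.

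Receptors that feed NF-kB split evenly, with 6 of 12 above and 6 below 0 and a median of 0.07. Cd40 was at 64.8, 32.5, 55.9 and 27.3 CPM in Estrogen, against 93.7, 71.9, 76.4 and 35.5 CPM in Vehicle, a log2 difference of -0.62 ± 0.34. Tnfrsf13c, the gene of the BAFF receptor, differed by -0.49 ± 0.26. By contrast Tnfrsf11a, which encodes the receptor of RANKL, was at 5.25 ± 2.19 CPM in Estrogen and 3.20 ± 0.993 CPM in Vehicle (0.71 ± 0.37), and Ltbr, the lymphotoxin beta receptor gene, at 15.8 ± 4.52 CPM in Estrogen and 11.9 ± 2.57 CPM in Vehicle (0.42 ± 0.23). Among 21 tested target genes 10 were above and 11 below 0 (median -0.03). The 1 pathway gene with an unadjusted p under 0.05 was Ltb, the gene of lymphotoxin beta, at 123, 55.0, 83.1 and 45.5 CPM in Estrogen, against 197, 168, 179 and 57.7 CPM in Vehicle. Vehicle 4 lay below Estrogen 1 and Estrogen 3, and the log2 difference of -0.97 ± 0.40 did not pass edgeR's test over all genes (adjusted p = 0.860). The activation markers Cd86 (13.3 ± 3.84 CPM in Estrogen and 21.4 ± 8.41 CPM in Vehicle) and Cd83 (84.4 ± 18.3 CPM in Estrogen and 111 ± 23.6 CPM in Vehicle) also had differences below 0, with adjusted p = 0.860 by edgeR for each. Over all 7 lists, 72 genes of which 71 were tested, 42 were below and 29 above 0 (median -0.06) and 0 were called.

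**Figure D5:**
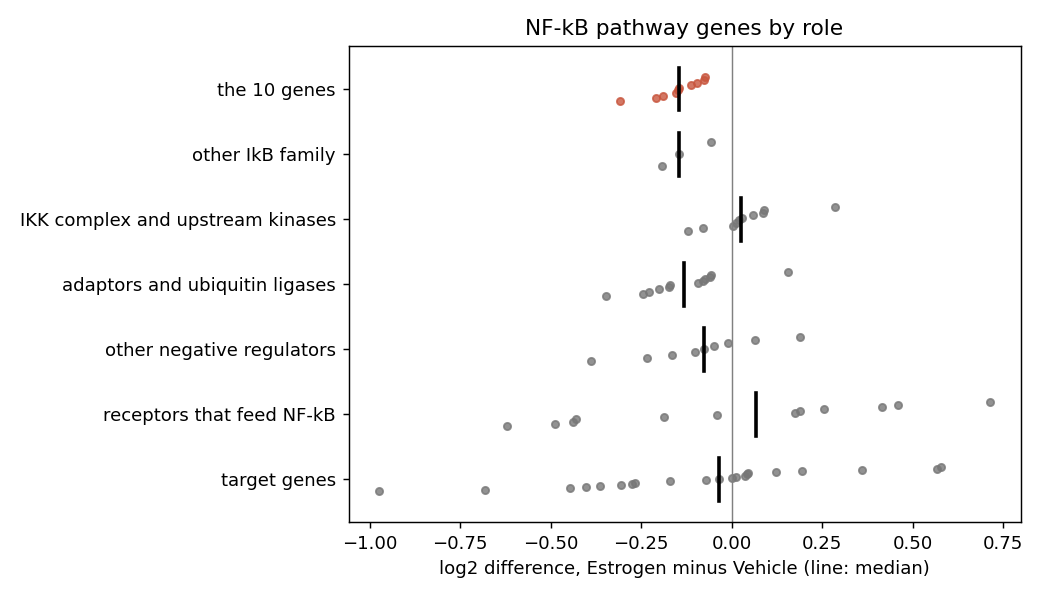
Fitted log2 difference of each tested gene of the 10 genes and of 6 of the 7 other NF-kB pathway lists by role, with the list median as a bar. The 10 genes lie between -0.31 and -0.07, a narrower span than that of the receptors (-0.62 to 0.71) and of the target genes (-0.97 to 0.58). The 3 other IkB genes span less still, from -0.19 to -0.06.

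To name the genes whose pattern was most like that of the members, log2 CPM of each member was standardised over the 8 libraries and averaged. This profile was at 0.421, -1.27, 0.265 and -1.22 in Estrogen, against 0.787, 0.410, 0.368 and 0.242 in Vehicle. The genes with the highest Pearson r to it among all those tested were Tox4 (r = 0.977), the immunoglobulin heavy chain segment Ighv9-4 (0.975), the sphingosine 1-phosphate receptor gene S1pr3 (0.969), Crybg1 (0.969) and Nfyb (0.967), which encodes a subunit of the CCAAT-binding factor NF-Y. Crybg1 was at 82.7, 61.1, 81.7 and 63.0 CPM in Estrogen, against 86.8, 90.1, 80.9 and 84.9 CPM in Vehicle, with Estrogen 2 and Estrogen 4 below the others. Being the highest of 15175 values from 8 libraries, these r describe likeness only.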

How the data were processed

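The authors deposited raw read counts per Ensembl gene with no normalization, 1 column for each of 4 Estrogen and 4 Vehicle libraries of sorted B cells. CASAVA, Bowtie 0.12.2 and mm10 stand in the submitters' processing notes. For the counter, annotation release and strand setting the sources used here give nothing.

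GENCODE M21 (GRCm38) matched 98.9% of identifiers to symbols. With edgeR 4.0.16 (R 4.3.3), filterByExpr kept 15175 of 46983 genes, TMM scaled them, and robust glmQLFit with the two-sided quasi-likelihood F-test compared the groups, with Benjamini-Hochberg adjustment over all genes tested (threshold 0.05). Group values are means ± SD, and the SE of a difference is its size over the root of F. Log2 CPM took a prior count of 2. The steps were tested on simulated counts with changes larger than those of the members, so that test does not cover differences of their size.

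Members, lists and rules were chosen with earlier results of these data known. Named are the 10 members, up to 4 genes of smallest p from each pathway list, the 5 genes most like the members' mean profile, and up to 2 markers per list. Cd79a, Cd3e, Cd3d, Cd3g, Cd8a and Cd4 were named after their values were seen. Alternatives used size factors or totals as scaling, other filters, DESeq2 1.42.0, limma-voom (limma 3.58.1), no robust step, a replicate block, and each library left out. Some genes of the lists are not reported here by name.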

Additional observations from a re-analysis of the deposited data

How the results depend on the processing

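All 160 member differences from the 16 other settings stayed below 0 and none passed the test, with adjusted p from 0.265 to 1.00 over edgeR, DESeq2 and limma-voom. The median of the 10 members ran from -0.19 to -0.08 when single libraries were left out, and was -0.10 when libraries were scaled by their totals, where all genes tested had a median of 0.05, compared with -0.01 under TMM. That scaling moved Nfkb1 (-0.10), Nfkb2 (-0.05), Rel (-0.03), Rela (-0.02), Nfkbie (-0.10) and Birc3 (-0.06) by over 1.5 times. The median of the other pathway genes ran from -0.08 to -0.03 without single libraries and was -0.01 with library totals. The DESeq2 Wald test called 1 gene (Cd8b1) and the fit with a replicate block called 1 (Tgm2, named after its value was seen), and neither is a member. Genes with an unadjusted p under 0.05 numbered 534, but 936 with no low-count filter, 2175 with the block, and 227 to 2156 without single libraries (227 without Estrogen 2, 2156 without Vehicle 4). The replicate numbers are shared by the groups, but same-numbered libraries deviated together only in part (r = 0.674, -0.131, 0.0798 and 0.554 for numbers 1 to 4), and Estrogen 2 correlated best with Vehicle 4 (0.398). By chi-square of counts per degree of freedom, Estrogen 1 with Vehicle 1 (17.2) and Estrogen 4 with Vehicle 4 (21.9) were the closest pairs of all. Same-group pairs ran from 26.0 to 127. Estrogen 2 with Vehicle 2 was at 122 and Estrogen 3 with Vehicle 3 at 41.6. The numbers were not read as pairs, and whether some of them are is not stated. With the block the median of the members was -0.15, and every member had a smaller SE (0.10 instead of 0.20 for Bcl3). Their adjusted p by edgeR then ran from 0.265 in Bcl3 to 0.686 in Rel. Levels per length depend on the annotated length chosen, most for Nfkb1. At these depths the spread between libraries limits the comparison more than counting does.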
